A study of Mus musculus with 18 samples.

Results

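The EphB receptors are the 5 genes *Ephb1*, *Ephb2*, *Ephb3*, *Ephb4* and *Ephb6*. They were taken by symbol from a list of 170 signalling genes that accompanies the study, and were matched by their UCSC identifiers to the deposited tables. All 5 were found in both tables, among 11054 genes that the tables share. The rule uses no measured value. RNA-Seq, which counts mRNA, and Ribo-Seq, which counts the ribosome-protected fragments (RPFs) that ribosomes shield from nuclease, were carried out on 3 tissues of mouse embryos at E11.5. Mesoderm was sorted as GFP+ cells from embryos that carry the transgene *Tg(T-cre)1LWD/J* and the reporter *R26-mTmG flox/+*, in which Cre under the *T* (Brachyury) promoter switches on GFP in descendants of the primitive streak, so that the sample mixes somite, limb and intermediate mesoderm. The neural tube (NT) and the buds of the forelimbs (FL) were dissected out of the same FVB embryos, which carry no reporter, and each holds every cell type of the dissected piece. All embryos and cells were handled in cycloheximide, which halts ribosomes on mRNA. Each tissue had 3 RNA-Seq and 3 Ribo-Seq libraries, and the study calls its replicates biological.

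Eph receptors are receptor tyrosine kinases whose ligands, the ephrins, are themselves anchored in the membrane of neighbouring cells. EphB receptors bind mainly ephrin-B proteins, and signals run both into the receptor-bearing cell and back into the ephrin-bearing cell. They are known for repulsive guidance of axons and migrating cells, for sharp boundaries between cell groups and for the separation of arteries from veins. EphB1 and EphB2 act in axon guidance, EphB3 acts with EphB2 in the nervous system and in epithelia, EphB4 is the receptor of venous endothelium for ephrin-B2, and EphB6 is known to lack kinase activity.

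The difference that sets EphB6 apart can be read from the coding sequence. The stretch that encodes the catalytic loop of the kinase domain is shown for each gene, 24 nt on the coding strand of GRCm38 (the assembly also named mm10), with the codon aligned to that of the catalytic aspartate in capitals.
*Ephb1* (chr9:101964031-101964054, minus strand, exon 12): caccggGACctggctgctagaaac
*Ephb2* (chr4:136659662-136659685, minus strand, exon 12): caccgtGACcttgctgctcgaaac
*Ephb3* (chr16:21221378-21221401, plus strand, exon 12): caccgtGACcttgctgcccgaaac
*Ephb4* (chr5:137369806-137369829, plus strand, exon 13): caccgaGACctggctgctcggaac
*Ephb6* (chr6:41618664-41618687, plus strand, exon 14): caccgaGCActctcggcccgaagt
Against *Ephb2*, the window of *Ephb3* differed at 1 base and those of *Ephb1* and *Ephb4* at 3 bases each, and none of these changes altered the encoded residue. The window of *Ephb6* differed at 9 bases, and 3 of its codons encoded another residue, including the capitalized codon. Over the whole translated CDS, *Ephb6* was 46.4% to 51.0% identical to the other members, which were 56.6% to 73.5% identical to each other.

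The genes lie on separate chromosomes. In the GENCODE annotation of GRCm38, *Ephb1* (UCSC identifier uc009rfn.2) spans chr9:101922128-102354693, *Ephb2* (uc008vim.1) chr4:136647539-136835988, *Ephb3* (uc007yrg.1) chr16:21204755-21223305, *Ephb4* (uc009ach.2) chr5:137350109-137378669 and *Ephb6* (uc009bqa.2) chr6:41605482-41620509. Their coding sequences were of nearly the same length, from 2952 nt in *Ephb1* to 3042 nt in *Ephb6*. The annotated 5′-UTRs were 126 nt in *Ephb2*, 354 nt in *Ephb1*, 415 nt in *Ephb3*, 426 nt in *Ephb4* and 512 nt in *Ephb6*, beside a median of 164 nt over 20375 coding genes. Upstream AUG codons, start codons in the 5′-UTR, numbered 2 in *Ephb1*, 2 in *Ephb6*, 1 in *Ephb4* and 0 in *Ephb2* and *Ephb3*. At least 1 was present in 53.3% of the 20375 coding genes with an annotated 5′-UTR. These are features of the longest coding isoform, and other isoforms differ, reaching a 5′-UTR of 2077 nt with 25 upstream AUGs in *Ephb3* and 1 upstream AUG in *Ephb2*, while *Ephb4* has isoforms with 0.

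Depth on the genes of the tables ran from 11000015 to 50136443 reads per library, and no member fell below 52 reads in any library. NT and FL were told apart by their own markers. All 3 neural genes (*Nes*, *Dcx* and *Ncam1*) were higher in NT and 4 of 5 limb and mesenchyme genes (*Hoxd13*, *Hoxd11*, *Msx1* and *Pdgfra*) were higher in FL by limma at adjusted p under 0.05, whereas *Lhx2* was not called (adjusted p = 0.44). In the sorted mesoderm the summed reads of the limb and mesenchyme genes were 16587 to 19503 and those of the neural genes 8796 to 11344, most of them from *Nes*. The neural genes were thus not absent from the sort, nor from FL, where their sum was 6607 to 7962. *Dcx*, a marker of young neurons, stood at 238 to 361 normalized reads in the sort, 301 to 345 in FL and 2675 to 7953 in NT. Mesoderm was normalized apart from NT and FL, so these levels are only roughly comparable. Some libraries stood apart. FL Ribo-Seq replicate 3 correlated at r = 0.886 and 0.896 with its replicates, which correlated at 0.976 with each other, and NT Ribo-Seq replicate 3 at 0.933 and 0.934, against 0.989. NT RNA-Seq replicate 1 held 659 normalized reads of the epithelial gene *Epcam* against 96.0 and 107 in the other NT replicates. Mesoderm RNA-Seq replicate 1 correlated at 0.939 and 0.953 with its replicates, against 0.987 between those.

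Values are normalized reads, the read counts of a gene divided by the effective size of the library. In NT, *Ephb2* had by far the most mRNA of the family. Its RNA-Seq values were 7314, 6676 and 6841 normalized reads in NT replicates 1, 2 and 3, and 2751, 2808 and 2735 in FL. Its RPFs were 6367, 6296 and 7880.1 in NT, against 1586, 1714 and 2462 in FL. The groups did not overlap in either library type, and every NT library lay above every FL library.

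*Ephb1* showed the same direction on a lower level. Its mRNA was 1228, 1779.5 and 1504 normalized reads in NT, against 196, 221 and 241 in FL. Its RPFs were 1389, 1419.8 and 1286 in NT, against 83.4, 230.2 and 213.5 in FL, so that the groups were separate in both library types. The lowest of these, in FL Ribo-Seq replicate 1, rested on 52 reads.

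*Ephb4*, the venous receptor, ran the other way. Its mRNA was 1853, 1624 and 1445 normalized reads in NT, against 9943, 10777 and 9126 in FL, and its RPFs were 1123, 1332 and 1608 in NT, against 5190.4, 5727 and 9715 in FL. Every FL library lay above every NT library.

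*Ephb3* had mRNA of 1786, 1323 and 1382 normalized reads in NT and 4215, 4484 and 4403 in FL, with no overlap. Its RPFs were 1472, 1610.1 and 2106 in NT, against 1902, 2498 and 5396 in FL. Here FL replicate 1 fell below NT replicate 3, and FL replicate 3 was far above the other FL libraries.

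*Ephb6* was alike in both tissues, with mRNA of 1037, 811 and 1195 normalized reads in NT and 1302, 1382 and 1144 in FL, and RPFs of 420.0, 395 and 748 in NT, against 460.2, 473 and 572 in FL. The groups overlapped in both library types.

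In mesoderm, which was normalized in a table of its own, *Ephb4* was again the highest member, at 7606, 12446 and 10948 normalized reads of RNA-Seq and 6718, 5723 and 8665 of Ribo-Seq. *Ephb3* had 3503, 4782 and 4382 of RNA-Seq and 3387, 2535 and 4259 of Ribo-Seq. *Ephb2* had 2603, 4229 and 3296 of RNA-Seq and 3040.2, 2581 and 3146 of Ribo-Seq. RNA-Seq replicate 1 was the lowest and replicate 2 the highest for each of these genes, whereas Ribo-Seq replicate 2 was the lowest for each. RNA-Seq replicate 1 was also lowest and replicate 2 highest in the red cell gene *Hba-x*, at 2250.5, 12367 and 4719 normalized reads. The summed reads of 5 endothelial markers ranged from 1517 in replicate 1 to 3717 in replicate 2. The same order held for the summed neural genes (8796 to 11344) and the summed limb and mesenchyme genes (16587 to 19503). Only the order was shared, as the ranges of *Hba-x* and of the endothelial sum were wider relative to their level. Among single markers, *Pdgfra*, *Dcx* and *Epcam* were instead lowest in replicate 2. The part of these cell types in the values of the EphB genes was not tested. *Ephb6* had 931, 1568 and 1330.2 of RNA-Seq and 352, 609.9 and 537 of Ribo-Seq, and *Ephb1*, the lowest member, had 208, 352 and 380.5 of RNA-Seq and 197, 135 and 325 of Ribo-Seq.

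**Figure D1:**
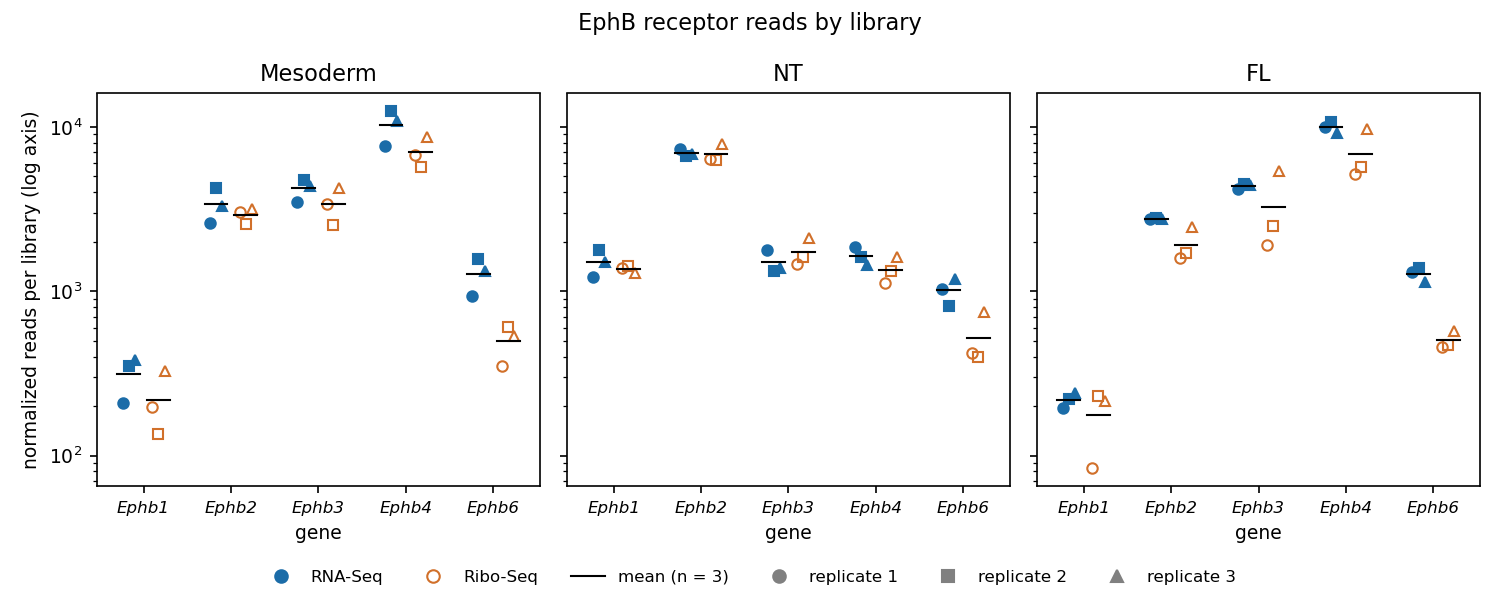
Normalized reads of the 5 EphB genes in every library (vertical axis, log scale), by tissue. Filled symbols are RNA-Seq and open symbols Ribo-Seq, with a shape for each of the 3 replicates and a line at the mean. *Ephb2* leads in NT at 6296 to 7880.1 reads, and *Ephb4* leads in mesoderm and FL at 5190.4 to 12446.

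The change of mRNA between FL and NT asks which members mark one tissue. By limma, 2 of 5 members were higher in NT, beside 12.3% of all 11231 genes, and 2 of 5 were higher in FL, beside 10.3% of all genes. *Ephb1* was 6.78-fold higher in NT (log2 change, FL minus NT, -2.76 ± 0.33 SE, adjusted p = 2.5e-05). *Ephb2* was 2.51-fold higher in NT (-1.33 ± 0.20, adjusted p = 2.0e-04). *Ephb4* was 6.08-fold higher in FL (2.60 ± 0.24, adjusted p = 2.7e-06) and *Ephb3* 2.94-fold higher in FL (1.56 ± 0.31, adjusted p = 0.0023). For *Ephb6* the log2 change was 0.34, with a 95% interval from -0.21 to 0.90 (adjusted p = 0.42). The members with separate RNA-Seq groups were 2 above and 2 below in FL, where 23.3% and 24.1% of all genes had groups that did not overlap in these directions. The endothelial markers *Kdr*, *Flt1*, *Tek*, *Tie1*, *Flt4* and *Sox17* were not called in either direction (0 of 6), and their summed normalized reads were 4444 to 4690 in NT and 3421 to 4765 in FL, beside the 6.08-fold difference of *Ephb4*. In such tissue pieces, fewer cells that express a gene and less RNA per cell cannot be told apart.

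The RPFs pointed the same way as the mRNA for *Ephb1*, *Ephb2*, *Ephb3* and *Ephb4*. Higher in NT were 2 of 5 members, beside 22.7% of all genes, and higher in FL was 1 of 5, beside 22.6%. *Ephb1* RPFs were 8.47-fold higher in NT (log2 change -3.08 ± 0.33, limma adjusted p = 7.2e-06) and *Ephb2* RPFs 3.61-fold higher in NT (-1.85 ± 0.20, adjusted p = 7.8e-06), and *Ephb4* RPFs were 4.93-fold higher in FL (2.30 ± 0.24, adjusted p = 7.1e-06). *Ephb3* RPFs had a log2 change of 0.79 ± 0.31 and did not pass (adjusted p = 0.056). That value depended on single libraries and on the test. It was 0.35 without FL Ribo-Seq replicate 3 (adjusted p = 0.14), 1.10 without FL Ribo-Seq replicate 1 (adjusted p = 0.015), 0.94 without NT Ribo-Seq replicate 3 (adjusted p = 0.041) and 0.50 without both replicate 3 Ribo-Seq libraries (adjusted p = 0.022), all by limma. edgeR and DESeq2 on recovered reads gave adjusted p values of 0.044 and 0.018, and called 22.6% and 25.9% of all genes higher in FL. *Ephb6* RPFs had a log2 change of 0.00 with a 95% interval from -0.56 to 0.56. Separate Ribo-Seq groups were found for 1 member above and 2 below in FL, beside 21.5% and 21.1% of all genes.

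Shares within a library are free of the normalization between libraries, so the make-up of the family could be set side by side in all 3 tissues. For this the reads of each gene were divided by the kb of its counted CDS and given as a percent of the sum over the 5 members. In NT, *Ephb2* made up 55.3% ± 0.41 (SD, n = 3) of EphB mRNA and 58.1% ± 1.08 of EphB RPFs. *Ephb4* made up 12.9% ± 1.19 of the mRNA there, *Ephb1* 12.1% ± 2.66, *Ephb3* 11.8% ± 1.46 and *Ephb6* 7.86% ± 1.49. In FL, *Ephb4* made up 53.4% ± 1.61 of the mRNA and 54.3% ± 1.75 of the RPFs, *Ephb3* 23.6% ± 1.21 and 24.5% ± 4.48, and *Ephb2* 15.0% ± 0.62 and 15.7% ± 1.97. By replicate, the RPF share of *Ephb3* in FL was 20.7%, 23.5% and 29.4%, and its mean without replicate 3 was 22.1%. That of *Ephb2* was 16.8% and that of *Ephb4* 54.96% without replicate 3. Mesoderm had the order of FL, with *Ephb4* at 52.7% ± 1.37 of the mRNA and 49.8% ± 1.14 of the RPFs, *Ephb3* at 21.9% ± 1.59 and 23.9% ± 1.78, and *Ephb2* at 17.4% ± 0.97 and 21.2% ± 2.13. The share of *Ephb1* was 1.61% ± 0.25 of the mRNA in mesoderm and 1.20% ± 0.16 in FL. *Ephb6* held 6.38% ± 0.22 of the mRNA but 3.59% ± 1.39 of the RPFs in mesoderm, 7.86% ± 1.49 and 4.22% ± 1.00 in NT, and 6.73% ± 0.32 and 4.10% ± 0.95 in FL. In each tissue the highest Ribo-Seq share of *Ephb6* lay below its lowest RNA-Seq share.

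**Figure D2:**
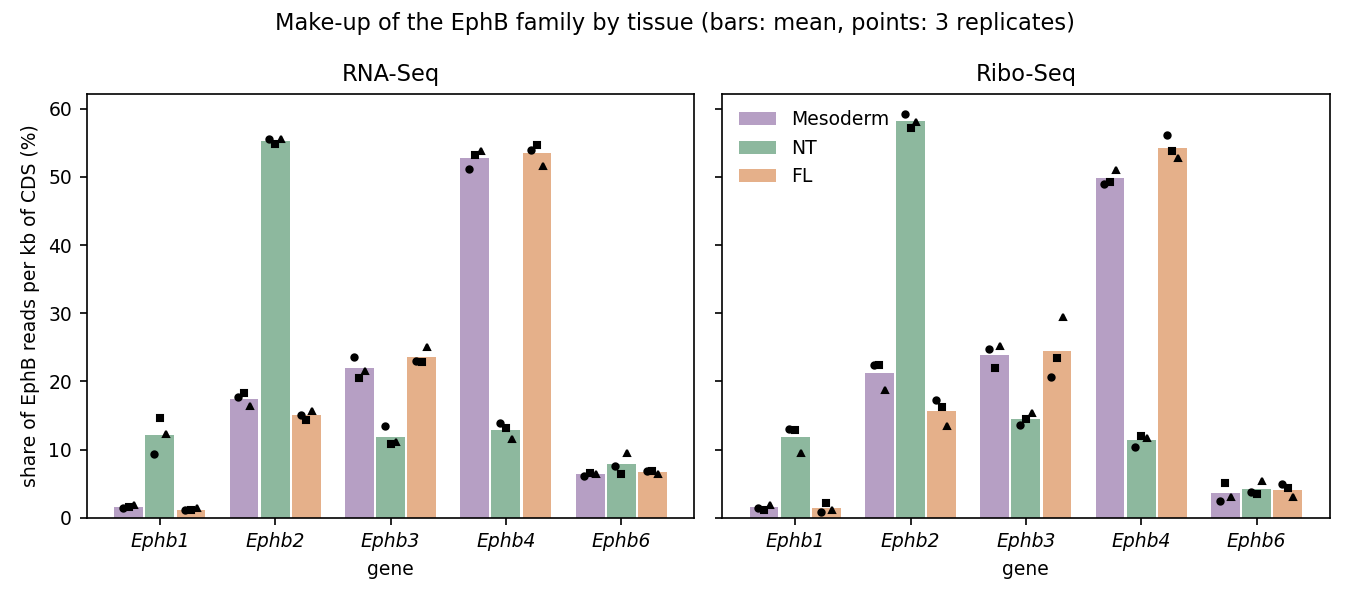
Share of each EphB gene in the reads per kb of CDS summed over the 5 genes (vertical axis, percent), for RNA-Seq on the left and Ribo-Seq on the right. Bars are means, points the 3 replicates, and colours the tissues. *Ephb2* makes up 55.3% of EphB mRNA in NT, and *Ephb4* 52.7% in mesoderm and 53.4% in FL.

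As levels per kb of CDS within one table, the order of the mRNAs in FL was *Ephb4* (3398 ± 282 normalized reads per kb, SD, n = 3), *Ephb3* (1496 ± 47.2), *Ephb2* (953 ± 13.2), *Ephb6* (428 ± 40.6) and *Ephb1* (75.8 ± 7.77), with no overlap between neighbours. In NT, *Ephb2* (2394 ± 114) was clear of all others, while *Ephb4* (560.4 ± 69.9), *Ephb1* (520.0 ± 95.3) and *Ephb3* (513 ± 86.3) did not differ beyond their spread. *Ephb6* was lowest there (340.2 ± 64.7), without overlap with the others. In mesoderm the levels were 3529 ± 846 for *Ephb4*, 1446 ± 224 for *Ephb3*, 1164 ± 281 for *Ephb2*, 428 ± 108 for *Ephb6* and 108 ± 32.0 for *Ephb1*, and *Ephb3* and *Ephb2* overlapped. The summed EphB mRNA was 4327 ± 185 normalized reads per kb in NT and 6351 ± 349 in FL, whereas the summed RPFs were 4062 ± 540 and 4358 ± 1682. By replicate the summed RPFs were 3703, 3800.3 and 4682 in NT, against 3154, 3641 and 6281 in FL. FL replicates 1 and 2 lay below every NT library and FL replicate 3 above them, and without replicate 3 the means were 3752 in NT, against 3397 in FL.

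Translational efficiency (TE) is the ratio of RPFs to mRNA of a gene, given as log2 and set to 0 at the median gene of each tissue. TE-low and TE-high genes lay 3-fold or more from the median with an adjusted p under 0.05. No member was called in mesoderm (0 of 5, beside 10.9% of all genes TE-low and 1.17% TE-high), in NT (0 of 5, beside 4.13% and 0.436%) or in FL (0 of 5, beside 13.4% and 6.25%). At an adjusted p under 0.05 and any distance below the median, limma passed 2 of 5 members in mesoderm (34.2% of all genes), 1 in NT (15.1%) and 2 in FL (29.5%). No member passed above the median in any tissue, where 32.0%, 10.9% and 28.8% of all genes did.

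*Ephb6*, the member without kinase activity, had the lowest mean TE of the family in each tissue and passed below the median in each. Its log2 TE was -1.44, -1.40 and -1.34 in mesoderm replicates 1, 2 and 3, which is 2.62-fold below the median (adjusted p = 5.0e-05, limma). In FL it was -1.50, -1.55 and -1.003, 2.55-fold below (adjusted p = 0.0010), and in NT -1.33, -1.07 and -0.71, 2.05-fold below (adjusted p = 0.013). It stood lower than 3-fold in none of these 9 pairs of libraries, and all 9 were below the median. The NT result was borderline without NT Ribo-Seq replicate 1, NT Ribo-Seq replicate 2 or NT RNA-Seq replicate 3 (adjusted p from 0.051 to 0.056, limma). It passed in the other 9 of 12 omissions. Among NT libraries these were Ribo-Seq replicate 3 and RNA-Seq replicates 1 and 2. The rest were omissions of FL libraries, which leave the NT estimate as it is and change only the shared estimate of spread. In mesoderm 13.9% of all genes had a lower TE, in NT 12.7% and in FL 17.3%.

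The other 4 members lay closer to the median. In mesoderm their replicate 2 was the low one in each case, at -0.75 for *Ephb2*, -0.95 for *Ephb3*, -1.16 for *Ephb4* and -1.41 for *Ephb1*, against 0.19 and -0.10, -0.08 and -0.08, -0.21 and -0.37, and -0.12 and -0.26 in replicates 1 and 3. *Ephb6* did not share this drop. The mean log2 TE in mesoderm was -0.58 ± 0.50 (SD, n = 3) for *Ephb4*, which passed below the median (adjusted p = 0.032, limma) but not without replicate 2 (-0.31, adjusted p = 0.077), without replicate 3 (-0.68, adjusted p = 0.11) or without the replicate block (adjusted p = 0.12). It was -0.60 ± 0.71 for *Ephb1* (adjusted p = 0.057), which passed without replicate 1 (-0.82, adjusted p = 0.0046) or replicate 3 (-0.76, adjusted p = 0.048) and was -0.20 without replicate 2. It was -0.37 ± 0.50 for *Ephb3* and -0.22 ± 0.48 for *Ephb2*, neither of which passed, and without replicate 2 the latter was 0.03.

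In NT the log2 TE of *Ephb3* was -0.31, 0.25 and 0.58, of *Ephb2* -0.23, -0.11 and 0.17, of *Ephb1* 0.15, -0.36 and -0.26 and of *Ephb4* -0.75, -0.32 and 0.12. None of these passed with all libraries, and each gene had replicates on both sides of the median. Without both replicate 3 Ribo-Seq libraries, *Ephb4* passed below the median (-0.45, adjusted p = 0.022, limma), as did 23.1% of all genes. In FL it was -1.15, -0.85 and 0.29 for *Ephb3*, -0.94, -0.92 and 0.09 for *Ephb4*, -0.80, -0.72 and -0.16 for *Ephb2* and -1.23, 0.05 and -0.18 for *Ephb1*. Replicate 3, whose Ribo-Seq library stood apart, was the highest for the first 3 of these genes. *Ephb2* passed below the median in FL (-0.56, adjusted p = 0.028, limma), though not without FL Ribo-Seq replicate 1 or 2 or any 1 of the FL RNA-Seq libraries (adjusted p 0.065 to 0.11) or with a replicate block within each tissue (adjusted p = 0.057). Without FL Ribo-Seq replicate 3 it was at -0.75 (adjusted p = 5.8e-04), and *Ephb3* and *Ephb4* passed as well (-1.01, adjusted p = 6.1e-04, and -0.87, adjusted p = 8.4e-04), as did 35.4% of all genes below the median. *Ephb4* also passed without NT Ribo-Seq replicate 3 (-0.59, adjusted p = 0.047), which enters the shared estimate of spread, and was at an adjusted p of 0.052 with all libraries (limma).

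**Figure D3:**
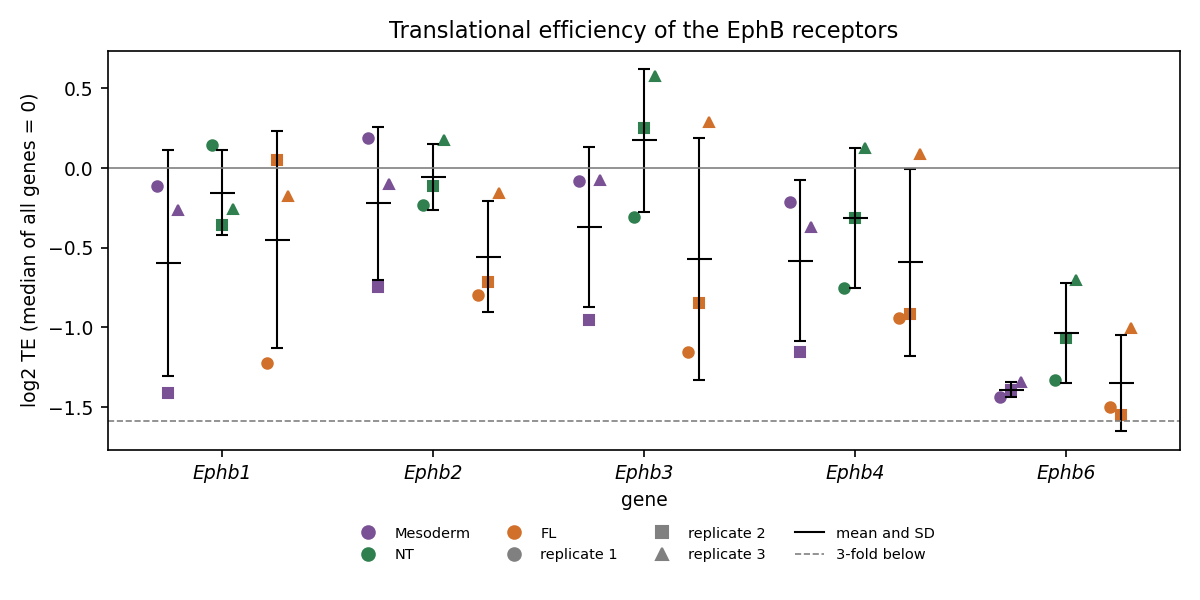
Log2 TE of each EphB gene (vertical axis, 0 at the median of all genes of the tissue), with a symbol for each replicate pair, coloured by tissue, and a bar for the mean and SD of 3. The dashed line marks 3-fold below the median. The *Ephb6* points lie between -1.55 and -0.71, all above that line, and in mesoderm the replicate 2 squares of the other genes sit lowest.

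Members were compared with each other in pairs within each tissue, 30 pairs in all, by two-sided exact permutation tests of 3 against 3 values of log2 TE. The smallest p that this design allows is 0.1, and the smallest adjusted p over the 30 pairs was 0.375, so no pair could pass. The pairs whose values did not overlap were 8, and each of them set *Ephb6* below another member. In mesoderm *Ephb6* lay below *Ephb2* by 1.17 ± 0.49 (log2, SD of the paired difference), below *Ephb3* by 1.02 ± 0.50 and below *Ephb4* by 0.81 ± 0.51. In NT it lay below *Ephb3* by 1.21 ± 0.16, *Ephb2* by 0.98 ± 0.11 and *Ephb1* by 0.88 ± 0.54, and in FL below *Ephb2* by 0.79 ± 0.08 and *Ephb4* by 0.76 ± 0.29. The values of 2 members come from the same libraries, which overlap and the permutation test leave aside. Taken library pair by library pair, 17 of 30 differences had the same sign in all 3 replicates, 11 of the 12 with *Ephb6* and 6 of the 18 among the other members. Of the 6, *Ephb3* lay above *Ephb4* in NT by 0.49 ± 0.07 and *Ephb2* above *Ephb4* in mesoderm by 0.36 ± 0.08. With 3 pairs the smallest two-sided p of an exact sign-flip test is 0.25.

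The change of TE between tissues asks whether the ratio of ribosomes to mRNA shifted beyond the mRNA. A call took a change of 2-fold or more with an adjusted p under 0.2, the thresholds of the study. By limma on all 12 libraries, 0 of 5 members were called higher in NT, beside 0.276% of all genes, and 0 of 5 higher in FL, beside 0.125%. With its DESeq model the study called many more genes in each direction at the same thresholds. So few calls over all genes mean that the lack of a called member carries little weight. At an adjusted p under 0.05 and any size it was again 0 of 5, beside 0.0267% and 0.0089%. The unadjusted p of the members ran from 0.083 for *Ephb2* to 0.50 for *Ephb1* (limma). edgeR called 0 of 5 as well, beside 0.187% of all genes higher in NT and 0.16% higher in FL, and so did DESeq2, beside 2.55% and 5.08%. With a replicate block within each tissue it was 0 of 5, beside 0.0267% and 0.0089%. The 5 estimates were all below 0, at -0.32 for *Ephb1* (95% interval from -1.32 to 0.68), -0.53 for *Ephb2* (-1.13 to 0.08), -0.77 for *Ephb3* (-1.73 to 0.19), -0.30 for *Ephb4* (-1.05 to 0.44) and -0.34 for *Ephb6* (-1.13 to 0.45), with adjusted p from 0.31 to 0.67. The median of the 5 was -0.34, beside -0.57 in 29 other receptor tyrosine kinases and 0.0087 over all genes. Groups of TE values overlapped for each member, while 10.1% and 6.81% of all genes had separate groups above and below in FL.

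This outcome depended on 1 library. Without FL Ribo-Seq replicate 3, *Ephb3* had a TE 2.31-fold higher in NT (-1.21, adjusted p = 0.0049, limma) and was called, and *Ephb2* was at -0.72 (adjusted p = 0.014), short of 2-fold. The share of all genes called went from 0.276% to 19.8% higher in NT and from 0.125% to 16.5% higher in FL. Without both replicate 3 Ribo-Seq libraries, *Ephb3* was at -1.06 (adjusted p = 0.0020) and *Ephb2* at -0.61 (adjusted p = 0.0057), with 22.2% and 20.4% of all genes called. Without NT Ribo-Seq replicate 3 alone, 15.0% and 11.1% of all genes were called but none of the members. *Ephb1* was at 0.15 without FL Ribo-Seq replicate 1, the library with 52 of its reads.

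**Figure D4:**
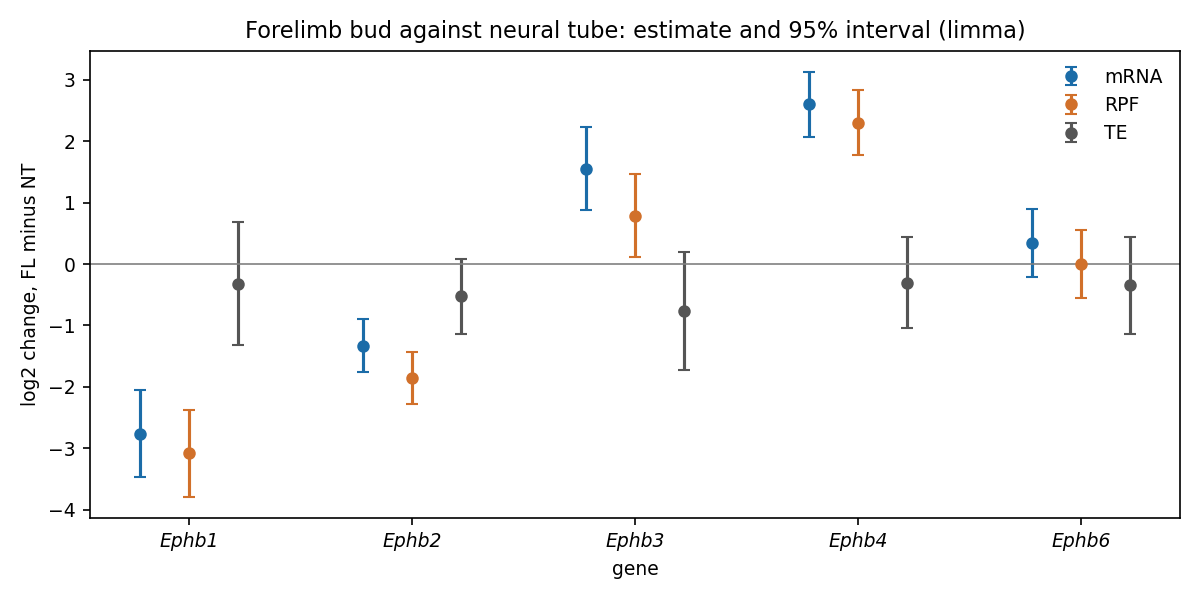
Log2 change of FL minus NT (vertical axis) for mRNA, RPFs and TE of each gene, estimates by limma with 95% intervals on 12 libraries. The mRNA and RPF intervals of *Ephb1* and *Ephb2* lie below 0 and those of *Ephb3* and *Ephb4* above it, although *Ephb3* RPFs did not pass after adjustment (adjusted p = 0.056), and all 5 TE intervals include 0.

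**Figure D5:**
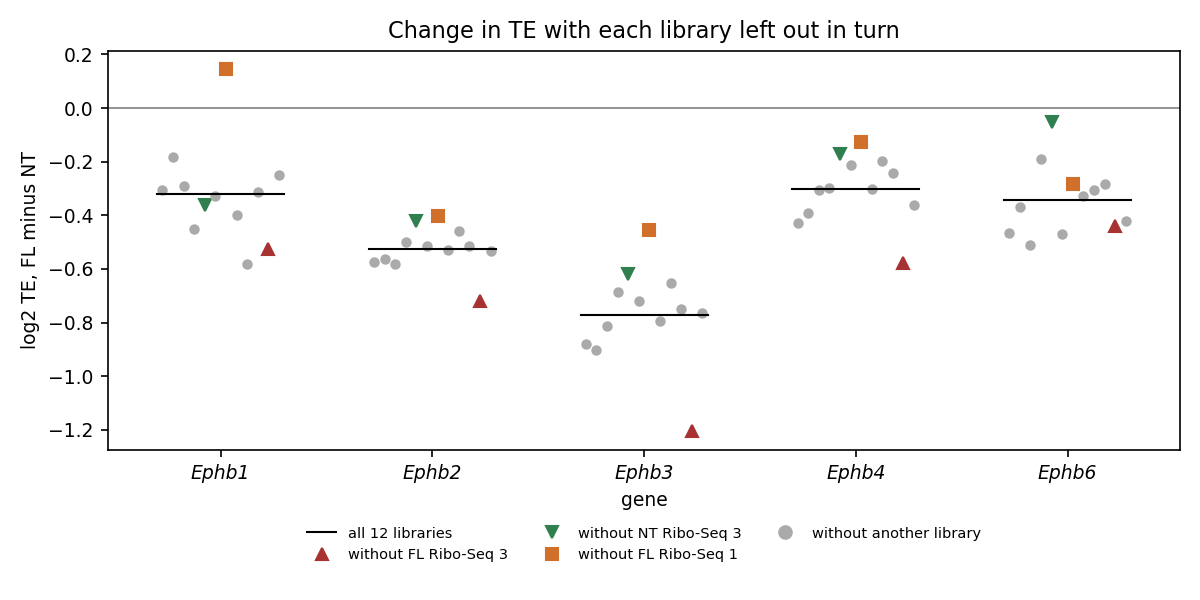
Log2 change of TE, FL minus NT (vertical axis), with each of the 12 libraries left out in turn. The line is the value with all libraries. *Ephb3* reaches -1.21 without FL Ribo-Seq replicate 3, and *Ephb1* turns to 0.15 without FL Ribo-Seq replicate 1.

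Other receptors and the routes that Eph receptors feed were described by counts alone, from lists of genes given symbols in the tables of the study. Of the EphA receptors, the sister group that binds mainly ephrin-A ligands, 6 were found in mesoderm and 4 in NT and FL. None of the 4 was called for mRNA between FL and NT, where *Epha2* (-0.77) and *Epha4* (0.87) were the extremes, and *Epha3* RPFs were 2.70-fold higher in NT (adjusted p = 0.0028, limma). In mesoderm *Epha8* was TE-low (-1.71, adjusted p = 7.2e-05) and *Epha4* was the highest at 0.52, and the median log2 TE was 0.14 beside -0.58 in the EphB receptors. In FL these medians were -0.42 for EphA and -0.57 for EphB, while NT had 0.36 and -0.15. The highest and lowest EphA receptors were *Epha4* (0.83) and *Epha2* (-0.27) in NT and *Epha2* (0.16) and *Epha7* (-0.88) in FL. For the change of TE they were *Epha2* (0.40) and *Epha7* (-1.72), and neither was called. The median change of TE was -0.82 in the EphA receptors, beside -0.34 in the EphB receptors.

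Among 34 other receptor tyrosine kinases, 29 were found in NT and FL, where 4 had higher mRNA in NT (*Ntrk2*, *Fgfr3*, *Ddr1* and *Kit*) and 13 in FL. The extremes were *Ntrk2*, a neurotrophin receptor that was 8.25-fold higher in NT, and *Pdgfra*, a receptor of mesenchyme that was 22.9-fold higher in FL. The EphB genes ranged from 6.78-fold higher in NT to 6.08-fold higher in FL. The RPFs of 6 were higher in NT and of 14 in FL, and 0 of 29 were called for TE. TE-low were 3 of 34 in mesoderm (*Fgfr3*, *Aatk* and *Ryk*), 1 of 29 in NT (*Ryk*) and 3 of 29 in FL (*Fgfr3*, *Aatk* and *Ryk*), and *Csf1r*, the receptor of macrophages, was TE-high in FL (1.75). The lowest were *Aatk* in mesoderm (-2.72) and FL (-2.41) and *Ryk* in NT (-2.08), and the highest was *Csf1r* in mesoderm (1.31) and *Ror1* in NT (0.90). Their median log2 TE was -0.37 in mesoderm, -0.02 in NT and -0.67 in FL.

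The genes called partners here are linked to EphB or ephrin-B signalling, and not all to the receptors themselves. They include *Ryk*, a receptor without kinase activity that is also among the 34, and the kinase *Abl2*. The others are the exchange factors *Vav2*, *Kalrn* and *Arhgef15*, the scaffold *Mllt4* (afadin) and the regulator *Rgs3*. Most of these have a symbol in the tables because they passed a threshold of the study. The thresholds were on TE in mesoderm or on the change of TE between NT and FL. Neither their counts of low TE nor their RPF and TE changes between FL and NT are thus independent evidence. In mesoderm, 4 of 7 were TE-low, with log2 TE of -2.85 for *Mllt4*, -2.49 for *Kalrn*, -2.30 for *Ryk* and -2.13 for *Vav2*, and the highest was *Rgs3* at -0.53. In FL, *Ryk*, *Vav2* and *Kalrn* were TE-low (3 of 6), and in NT *Ryk* (1 of 6). The mRNA of *Vav2* was 3.51-fold, of *Rgs3* 2.96-fold and of *Kalrn* 2.40-fold higher in NT, and none of the 6 was called higher in FL. The RPFs of *Kalrn* were 9.003-fold, of *Vav2* 6.48-fold and of *Abl2* 2.08-fold higher in NT. No partner was called for the change of TE, where *Kalrn* (-1.91) and *Rgs3* (1.06) were the extremes.

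In the Ras and ERK arm, which carries receptor signals to the MAP kinases, 13 of 13 genes were found. The exchange factor *Sos2* was TE-low in mesoderm (-2.15) and FL (-2.28), and no other gene of the arm was called in any tissue. The highest was *Grb2* in mesoderm (1.06) and FL (1.57). The mRNA of *Grb2* and *Mapk3* was 1.97-fold and 1.69-fold higher in NT, as were the RPFs of *Sos2* (2.71-fold). In the PI3K arm, the lipid kinase route, 3 of 8 genes were TE-low in mesoderm (*Pik3ca*, *Pik3cd* and *Pik3r2*), 5 of 8 in FL (*Pik3ca*, *Pik3cb*, *Pik3cd*, *Pik3r4* and *Pik3r5*) and 0 of 8 in NT, with medians of -1.49 in mesoderm, -2.13 in FL and -1.25 in NT. *Pik3cd* was lowest in mesoderm (-2.05) and FL (-3.04) and *Pik3r5* in NT (-1.63), and *Pik3r1* was highest in each (0.22, 0.03 and 0.53). *Pik3cd* was 4.67-fold higher in NT in mRNA, and the RPFs of 5 of 8 genes were higher in NT, *Pik3cd* by 14.7-fold, *Pik3cb* by 4.57-fold, *Pik3r3* by 3.35-fold, *Pik3r4* by 3.34-fold and *Pik3r1* by 2.31-fold. No gene of either arm was called for the change of TE.

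By TE in the 3 tissues, the genes most like each member were sought among 141 of the signalling genes with at least 100 normalized reads on average in the RNA-Seq of every tissue, by Euclidean distance over the 3 values. Nearest to *Ephb6* were *Mapk6* (distance 0.20) and *Araf* (0.25), nearest to *Ephb1* were *Ddr1* (0.08) and *Ephb4* (0.21), and nearest to *Ephb4* were *Map2k7* (0.13) and *Erbb3* (0.16). *Ephb2* and *Ephb3* were near each other (0.28), and the other neighbours were *Braf* for *Ephb2* (0.31) and *Pik3r3* for *Ephb3* (0.25). The *Mapk6* values were -1.33, -1.14 and -1.51 in mesoderm, NT and FL, next to -1.39, -1.03 and -1.35 for *Ephb6*.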

How the data were processed

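RNA-Seq and Ribo-Seq of 3 tissues gave 18 libraries, 3 replicates for each of 6 conditions. The authors trimmed reads with cutadapt, aligned them with Bowtie2 to canonical UCSC known gene isoforms (mm10), kept unique alignments and counted reads on the CDS, leaving out 15 codons at its start and 5 at its end. The deposited signal values are these counts divided by the effective library size of DESeq. Mesoderm (12064 genes) and NT with FL (11231 genes) form separate tables that were normalized apart, so each test stayed within 1 table.

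Here limma 3.58.1 (R 4.3.3, trend) was fitted to log2(normalized reads + 1) over all genes of a table, so that a log2 change is on that scale, with Benjamini-Hochberg adjustment over all genes. TE was centred on its median. Mesoderm had the replicate number as a block, and deviations of same-numbered libraries correlated at 0.74, 0.58 and 0.57 there. NT and FL had no block. Per the study's methods, cells of each tissue were split between library types and both tissues were taken from shared embryos. Deviations of same-numbered RNA-Seq and Ribo-Seq libraries of a tissue correlated from -0.28 to 0.35. Between NT and FL they correlated from -0.24 to -0.02 for RNA-Seq and from -0.58 to -0.29 for Ribo-Seq. Fits with a block were therefore made as alternatives. Whole reads were recovered from the steps of the values (100.0% of values within 0.0055 normalized reads) for edgeR 4.0.16 and DESeq2 1.42.0.

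Alternatives were pseudocounts of 0.5 and 8, a mean of at least 10 normalized reads, other centring, blocking, thresholds and tools, and omissions. In NT and FL each library was left out in turn. In mesoderm each replicate was left out, with both of its libraries. Omission of both replicate 3 Ribo-Seq libraries and a block within each tissue were chosen after seeing the data. The members, lists and tests were chosen with earlier results of these data known. The text names all members and markers, for each list the called genes where 5 or fewer and the extremes, and the 2 genes nearest each member. Values of some genes of the Ras and ERK arm are not reported here. Symbols came from tables of the study, and the ephrin-B ligands were not analysed here. Gene models came from GENCODE. Limma intervals and p-values rest on 1 estimate of spread per gene, moderated over all genes. RNA-Seq and Ribo-Seq share it, over the 6 libraries of mesoderm or the 12 of NT and FL. In NT and FL an mRNA p-value is thus no measure of the RNA-Seq replicates alone, and omission of Ribo-Seq libraries also moved mRNA calls. Each condition had 3 replicates.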

Additional observations from a re-analysis of the deposited data

How the results depend on the processing

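Over 30 results for single members (5 genes in 6 comparisons), 565 values were computed under the alternatives. Of these, 527 kept direction and side of the threshold, 17 newly passed, 12 no longer passed and 9 changed sign. In NT and FL some could not change direction, because omission of a library outside a comparison leaves its estimate as it was. Only the shared spread then changes. The changed signs belonged to *Ephb6* RPFs, FL minus NT (-0.036 centred on the median, -0.076 with edgeR, -0.049 with DESeq2 and -0.17 to 0.29 with a library left out). They also belonged to *Ephb1* with a library left out (FL TE -0.72 to 0.0086, change of TE -0.58 to 0.15). The last was *Ephb2* TE in mesoderm with a replicate left out (-0.41 to 0.030). The cause was not tested. In mesoderm, with a replicate left out (both its RNA-Seq and its Ribo-Seq library), TE-high genes numbered 72 to 271. With a single library left out, they numbered 33 to 80 in NT and 378 to 1417 in FL. Genes with higher RPFs in FL then numbered 1541 to 3677 (members 1 to 2). Genes with a changed TE numbered 1 to 2219 higher in NT (members 0 to 1) and 1 to 1853 higher in FL. Without both replicate 3 Ribo-Seq libraries there were 1422 TE-high genes in FL, 2253 and 2127 genes with higher mRNA in NT and FL, 3893 and 4016 with higher RPFs (2 members in FL), and 2498 and 2293 with higher TE (1 member in NT). A 2-fold threshold made 1 member, *Ephb6*, TE-low in each tissue, with 2596 genes TE-low and 1582 TE-high in mesoderm, 1234 and 507 in NT, and 2581 and 2128 in FL. edgeR and DESeq2 each called 2 members higher in FL by RPFs, beside 2533 and 2909 of all genes. For the change of TE, DESeq2 called 286 genes higher in NT and 570 in FL, and an adjusted p under 0.05 of any size left 3 and 1.

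A replicate block in NT and FL, where deviations of same-numbered libraries correlated from -0.58 to 0.35, gave 5 and 1 genes with changed TE and moved no call of a member. A replicate block within each tissue, which pairs the Ribo-Seq and RNA-Seq libraries of a tissue, gave 3 and 1 such genes and ended the pass of *Ephb2* in FL (-0.56, adjusted p = 0.057, limma). No replicate block in mesoderm ended the pass of *Ephb4* (-0.58, adjusted p = 0.12, limma).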
